A study of Mus musculus with 6 samples.

Results

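The machinery that brings secretory and membrane proteins into the endoplasmic reticulum (ER), and attaches N-linked glycans to them, was followed in wild-type (WT) B cells and in B cells deficient in PP2Aa, a scaffold subunit of protein phosphatase 2A that Ppp2r1a encodes. The genes were taken by name: subunits of the signal recognition particle (SRP) and its receptor, the Sec61 channel with Sec62 and Sec63, the translocon-associated protein complex (TRAP, Ssr genes), signal peptidase and oligosaccharyltransferase. All 34 listed genes had a row among the 22788 genes of the table, and 32 of them reached 1 FPKM (fragments scaled to transcript length and library size) in at least 3 libraries, as did 9425 genes in all. The study holds 3 libraries per group from mice of 8 weeks on a C57BL/6 background. WT mice are labelled wild type, with no Cre named. PP2Aa-deficient mice carry floxed Ppp2r1a alleles (flox/flox) and a Cre recombinase that removes the floxed part, so that cells that escaped recombination keep the gene. The labels give the spleen as tissue and a wash of the peritoneal cavity as the source, and B cells as the cell type. A plate sheet deposited with the table marks the WT wells as miRNA controls and the PP2Aa-deficient wells as miRNA targets, which the labels do not explain, and the groups follow the labels. Whether each library came from a separate mouse is not stated, so the p-values below speak only to the spread among the libraries, which may be technical.

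In cells that secrete, a signal sequence emerging from the ribosome is bound by SRP, which docks at its receptor on the ER membrane and hands the chain to Sec61. Signal peptidase removes the signal sequence, and oligosaccharyltransferase moves a preassembled glycan from a lipid carrier to asparagines of the chain. B cells need this route for surface immunoglobulin, and its genes rise when B cells become antibody-secreting plasma cells, where the transcription factor XBP1 is required.

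The libraries held about 2140000 to 3780000 fragments each, as estimated from the most common step among low FPKM values. Ppp2r1a measured 84.9 ± 1.08 FPKM in the WT group and 38.6 ± 15.4 in the deficient group (SD, n = 3), and all 3 deficient libraries lay below every WT library. Its limma adjusted p was 0.168, and without PP2Aa-deficient replicate 2, the library at 56.2 FPKM, it was 0.00555. The 8 B cell markers summed to 3350 to 3466 FPKM in the WT group and 3199 to 3634 in the deficient group. Cd79a was the largest part of this sum in every library. The groups did not overlap in Fcrla, lower in the deficient group (156 ± 8.22 and 102 ± 17.7 FPKM). Nor did they in Ms4a1, which was higher there (330 ± 49.0 and 382 ± 7.62 FPKM). Neither passed (limma adjusted p = 0.244 and 0.653), and in the other B cell markers the groups overlapped. Xist, which is transcribed from the inactive X chromosome, was above 1 FPKM only in replicate 1 of each group. None of the ER genes lies on chromosome 17, which carries Ppp2r1a (0 of 34 genes, spread over 16 chromosomes in RefSeq annotation).

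No ER gene passed the test for a difference between the groups. With limma on log2(FPKM + 1) and Benjamini-Hochberg adjustment over all 9425 genes at 0.05, 0 of 32 were called lower and 0 were called higher, beside backgrounds of 0.0318% and 0% of all genes tested. Before adjustment, limma gave p under 0.05 to 0 lower genes and to 1 higher gene, Srp14, beside 4.41% and 5.06% of all genes, or 9.47% in either direction. Most values leaned the other way from Srp14: 23 of 32 genes had a log2 change below 0, against 51.1% of all genes tested, and the median log2 change was -0.13, against -0.01 over all genes. This lean depended on WT replicate 1. Without that library 18 of 32 genes were below WT and the median was -0.04, against -0.02 over all genes.

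The 95% interval of the log2 change lay within -1 to 1 for 31 of 32 genes, beside 84.2% of all genes tested, the exception being Sec61a2. The median standard error of the ER genes was 0.16, against 0.20 over all genes and 0.16 over genes with a mean of at least 10 FPKM. The groups did not overlap in 5 genes lower in the deficient group (15.6% of 32: Sec61a1, Sec62, Ssr3, Rpn1 and Magt1) and in 1 higher gene (Srp14), beside 7.4% and 7.7% of all genes. Without WT replicate 1 there were 7 lower and 3 higher genes, beside 15.2% and 14.04% of all genes.

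**Figure D1:**
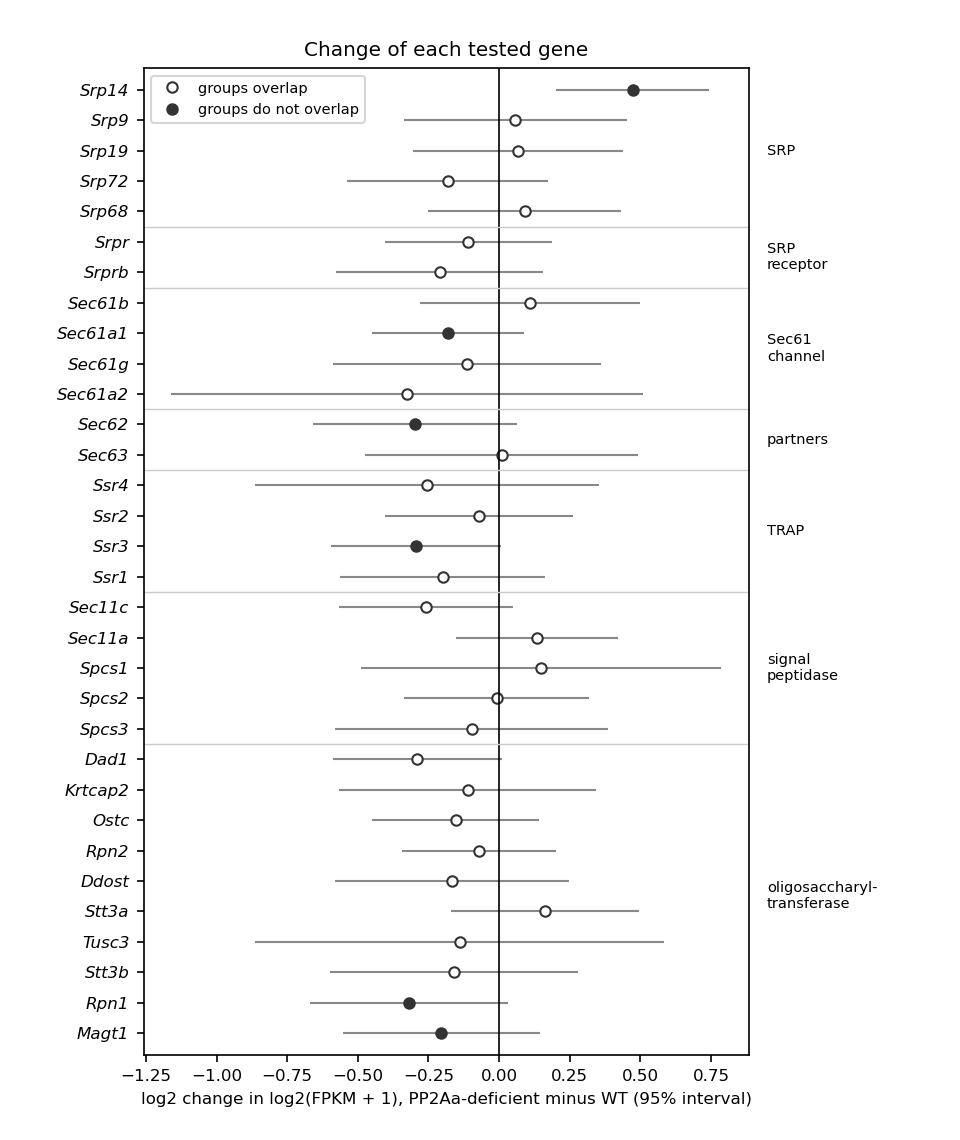
Log2 change of each of the 32 tested genes (horizontal axis, PP2Aa-deficient minus WT, on the log2(FPKM + 1) scale) with its 95% limma interval, grouped by complex. Filled points mark genes whose groups did not overlap. The interval of Srp14 lies above 0, and the intervals of the other 31 genes include 0.

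The signal recognition particle has an Alu domain, in which SRP9 and SRP14 slow translation while the ribosome docks, and an S domain, in which SRP54 reads the signal sequence on a scaffold with SRP19, SRP68 and SRP72. Srp14 was at 114, 101 and 113 FPKM in WT replicates 1 to 3 and at 161, 137 and 158 FPKM in PP2Aa-deficient replicates 1 to 3. Each deficient library was above every WT library. The log2 change was 0.47 (SE 0.12, 95% interval 0.20 to 0.74), and PP2Aa-deficient libraries held 139% of the WT mean, and limma gave an adjusted p of 0.25 (0.00353 without adjustment). Across the 13 other settings and left-out libraries the log2 change ranged from 0.41 to 0.54 and the adjusted limma p was at least 0.211.

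Srp9, the partner of Srp14 in the Alu domain, stood at 54.3, 34.2 and 46.2 FPKM in the WT group, against 43.9, 48.8 and 45.2 FPKM in the deficient group, with the deficient values inside the WT range. Srp19, which helps SRP54 to bind, measured 42.1 ± 7.50 and 43.8 ± 4.40 FPKM (SD, n = 3), Srp68 13.4 ± 0.405 and 14.4 ± 2.05, and Srp72 17.05 ± 2.46 and 14.9 ± 1.51. In these 4 genes the groups overlapped. The summed level of the particle's genes was 201 to 244 FPKM in the WT group and 254 to 281 in the deficient group, and without Srp14 it was 101 to 130 and 117 to 122, where the groups overlapped.

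Srp54, the subunit that recognises the signal sequence, was near the lower end of this table. Srp54a stood at 0.425, 0.181 and 0.517 FPKM in the WT group, against 0.626, 0.977 and 0.555 in the deficient group, which corresponds to about 3.08 to 9.54 fragments per library, and it failed the filter. The deficient libraries lay above the WT libraries, with too few fragments to test. Srp54b was listed at 0 in all 6 libraries. A further copy, Srp54c, looked up after these values were seen, was at 0.155 to 0.217 FPKM in the WT group and 0.323 to 0.391 in the deficient group. All 3 genes lie on chromosome 12. In GENCODE M21 the 1512 coding bases of Srp54a and Srp54b differed at 0 positions, and those of Srp54a and Srp54c at 6 positions, an identity of 99.6%. Most reads from the coding part therefore cannot be assigned to 1 copy, and how the authors' counting treated such reads is not given. A stretch that holds 3 of the 6 differences, coding bases 901 to 990 counted from the first base of the start codon, shows how little separates the copies; capitals mark the 3 positions at which Srp54c differs (T945C, G946A and T965G, with the base of Srp54a first).
Srp54a: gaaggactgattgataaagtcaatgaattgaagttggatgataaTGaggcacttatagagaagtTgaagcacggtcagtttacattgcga
Srp54b: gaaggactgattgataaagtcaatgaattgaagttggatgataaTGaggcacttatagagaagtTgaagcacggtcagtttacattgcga
Srp54c: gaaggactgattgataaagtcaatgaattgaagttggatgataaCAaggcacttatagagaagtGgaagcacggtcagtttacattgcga

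Both genes of the SRP receptor were at a lower mean in the deficient group, and neither passed. Srpr, the subunit that binds SRP, stood at 28.9, 30.7 and 29.6 FPKM in the WT group, against 29.0, 29.4 and 24.3 FPKM in the deficient group. Only PP2Aa-deficient replicate 3 lay below the others, and without it the log2 change went from -0.11 to -0.02. Srprb, which anchors the receptor in the membrane, measured 9.85 ± 1.09 and 8.39 ± 1.05 FPKM (SD, n = 3; limma adjusted p = 0.748).

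**Figure D2:**
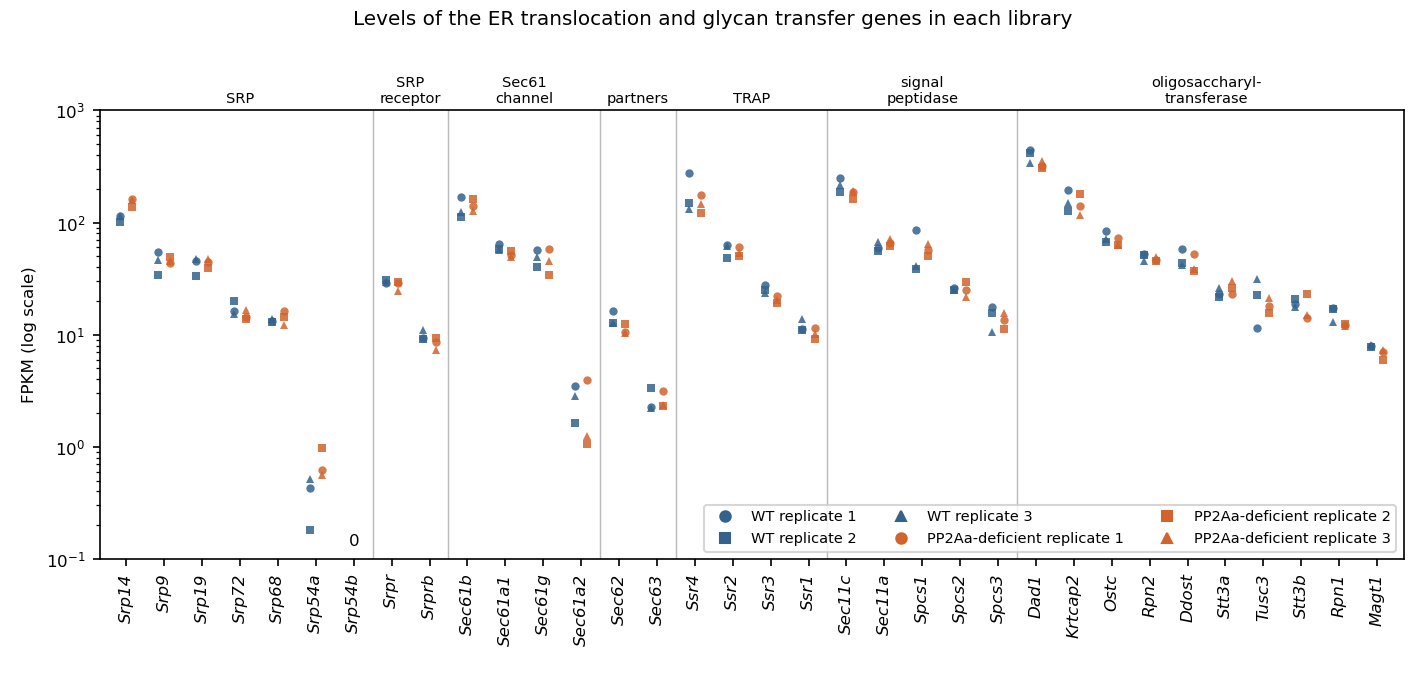
Level of each of the 34 genes in each library (vertical axis, FPKM on a log scale), ordered by complex and by mean level; symbols give the replicate and colours the group. Dad1 is the highest gene and Srp54b is listed at 0 throughout; in most genes the groups lie on top of each other.

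The Sec61 channel is built from an alpha, a beta and a gamma subunit, of which alpha forms the pore. Sec61a1, the main alpha gene, stood at 64.1, 58.2 and 56.7 FPKM in the WT group, against 51.8, 55.9 and 49.7 FPKM in the deficient group. All 3 deficient libraries lay below the lowest WT library, in replicate 2 by less than 1 FPKM. The log2 change was -0.18 (SE 0.12, limma adjusted p = 0.686). Its paralog Sec61a2, whose coding sequence is 78.8% identical, stood at 3.48, 1.63 and 2.84 FPKM in the WT group, against 3.98, 1.05 and 1.25 in the deficient group. That level rests on about 5.58 to 24.6 fragments per library. Its log2 change, -0.32 with a 95% interval of -1.16 to 0.51, was the least precise of the list, ranging from -0.73 without PP2Aa-deficient replicate 1 to -0.09 without PP2Aa-deficient replicate 2.

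In both small subunits of the channel the groups overlapped. Sec61b stood at 168, 112 and 123 FPKM in the WT group, against 141, 162 and 128 in the deficient group, with a log2 change of 0.11 that was -0.01 without WT replicate 2. Sec61g measured 48.7 ± 8.52 and 45.5 ± 11.8 FPKM (SD, n = 3), a log2 change of -0.11. Although the protein complex holds the subunits in equal number, the mean level over all libraries was 139 FPKM for Sec61b, 56.1 for Sec61a1 and 47.1 for Sec61g. Over the 32 tested genes mean FPKM was higher the shorter the coding sequence (Spearman's rho = -0.61 across genes, which share libraries and the authors' length correction and are not independent).

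Sec62 and Sec63 help chains that Sec61 does not open for readily, and Sec63 recruits the lumenal chaperone BiP. Sec62 stood at 16.2, 12.8 and 12.7 FPKM in the WT group, against 10.5, 12.3 and 10.4 FPKM in the deficient group. The groups did not overlap, but WT replicates 2 and 3 were close to PP2Aa-deficient replicate 2. The log2 change was -0.30 (SE 0.16, limma adjusted p = 0.603). Sec63 measured 2.60 ± 0.638 and 2.61 ± 0.465 FPKM (SD, n = 3), a log2 change of 0.01.

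TRAP sits beside Sec61 and helps chains with weak signal sequences to enter. All 4 of its genes were at a lower mean in the deficient group, and none passed. Ssr3 stood at 27.6, 25.0 and 23.5 FPKM in the WT group, against 22.1, 19.2 and 20.2 FPKM in the deficient group. All 3 deficient libraries lay below every WT library, and the log2 change was -0.29 (SE 0.13), for which limma gave an adjusted p of 0.538 (0.0553 without adjustment). Ssr4, the most abundant of the 4, stood at 277, 150 and 131 FPKM in the WT group, against 177, 123 and 147 FPKM in the deficient group. WT replicate 1 alone stood above the rest, and without it the log2 change of Ssr4 went from -0.26 to 0.07. Ssr2 measured 57.7 ± 8.37 and 54.7 ± 5.04 FPKM (SD, n = 3), and Ssr1 lay at 11.04 to 13.9 and 9.21 to 11.5 FPKM.

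Signal peptidase has a catalytic subunit, encoded by Sec11a or Sec11c, and accessory subunits encoded by the Spcs genes. Sec11c stood at 248.5, 187 and 218 FPKM in the WT group, against 189, 164 and 191 FPKM in the deficient group. WT replicate 2 lay inside the deficient range, and the log2 change was -0.26 (SE 0.14, limma adjusted p = 0.595). Sec11a stood at 59.4, 55.7 and 67.4 FPKM in the WT group, against 66.0, 62.3 and 71.9 FPKM in the deficient group, a log2 change of 0.13 (SE 0.13, limma adjusted p = 0.806). Sec11c was therefore the more abundant catalytic gene per length in every library.

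The ratio of Sec11a to Sec11c did not overlap between the groups. It was 0.239, 0.297 and 0.309 in WT and 0.35, 0.381 and 0.376 in the deficient group. With 3 libraries per group the two-sided exact permutation p of 0.1 was the smallest the design allows, and it was 0.4 after Benjamini-Hochberg adjustment over the 4 paralog pairs compared. The accessory gene Spcs1 was at 85.9 FPKM in WT replicate 1, with 38.6 and 41.1 in WT replicates 2 and 3 and 50.6 to 64.95 in the deficient group. Spcs2 measured 25.4 ± 0.588 and 25.4 ± 3.81 FPKM and Spcs3 14.6 ± 3.71 and 13.4 ± 2.19 (SD, n = 3).

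**Figure D3:**
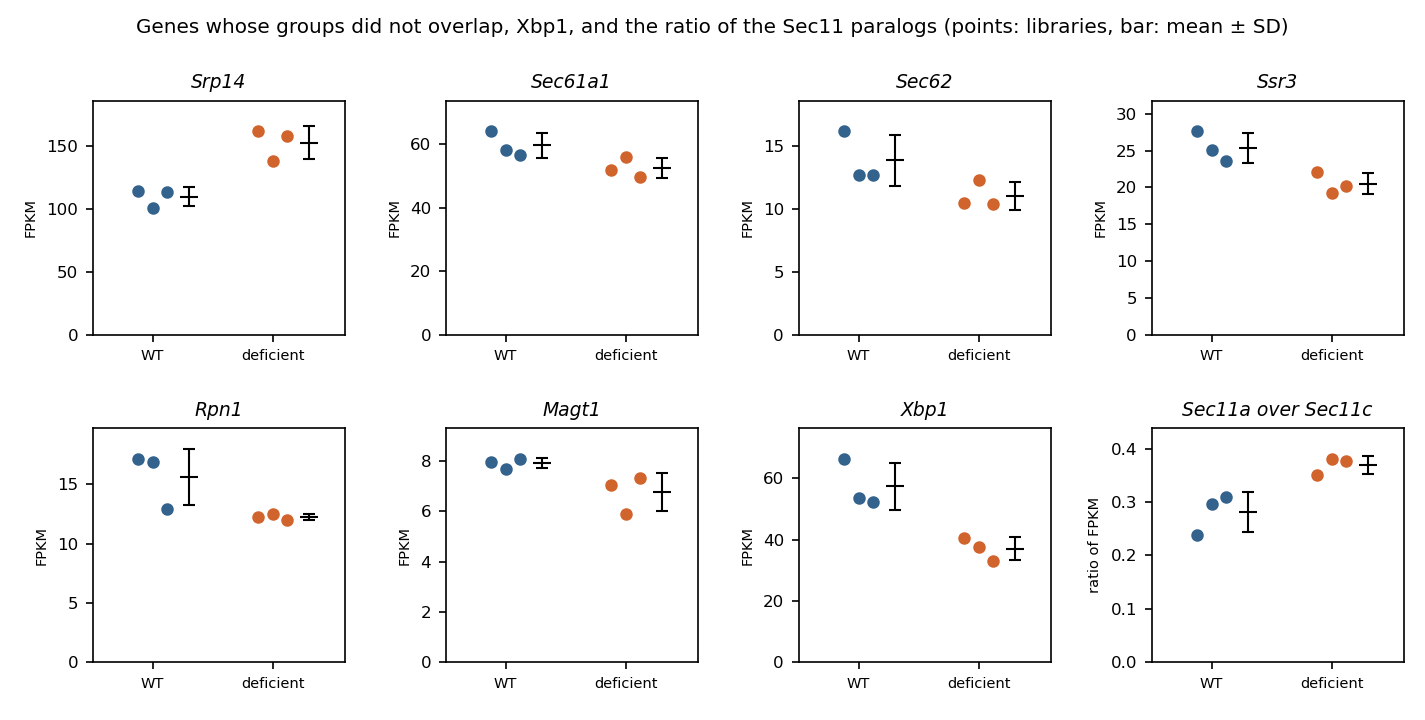
FPKM by library for the 6 tested genes whose groups did not overlap and for Xbp1, and the ratio of Sec11a to Sec11c, with the mean ± SD of the 3 libraries beside each group; every vertical axis starts at 0. Srp14 and the Sec11 ratio are higher in the deficient group and the other 6 panels are lower, with the smallest gaps in Sec61a1, Sec62, Rpn1 and Magt1.

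Oligosaccharyltransferase exists in an A form, built on STT3A and acting while the chain is being translocated, and a B form, built on STT3B and reaching sites that the A form skipped. Of the subunits shared by both forms, the listed genes Dad1, Rpn1, Rpn2 and Ddost were at a lower mean in the deficient group. Ost4, described with the further lists, was at a higher mean. Tmem258, a further subunit gene also described there, had a log2 change of -0.02. Dad1, a small core subunit and the highest gene of the list at a mean of 364 FPKM, stood at 446, 416 and 343 FPKM in the WT group, against 321, 304 and 357 FPKM in the deficient group. WT replicate 3 lay below PP2Aa-deficient replicate 3, so the groups overlapped, and the log2 change was -0.29 (SE 0.13). For Dad1 limma gave an adjusted p of 0.539 (0.0571 without adjustment).

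Rpn1, a core subunit that binds ribosome and substrate, stood at 17.1, 16.9 and 12.9 FPKM in the WT group, against 12.2, 12.5 and 11.98 FPKM in the deficient group. The groups did not overlap, but WT replicate 3 was within 1 FPKM of the deficient libraries, and the log2 change was -0.32 (SE 0.15, limma adjusted p = 0.556). Rpn2 measured 49.9 ± 3.74 and 47.3 ± 2.03 FPKM and Ddost, another core subunit, 48.01 ± 9.22 and 42.7 ± 8.15 (SD, n = 3).

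The catalytic genes of the A and B forms leaned in opposite directions, within their spread. Stt3a stood at 23.1, 21.7 and 25.8 FPKM in the WT group, against 23.2, 26.2 and 30.2 FPKM in the deficient group. Among the 10 listed genes of the complex it was the 1 with a log2 change above 0, at 0.16 (SE 0.15, limma adjusted p = 0.801). Stt3b stood at 18.8, 20.7 and 17.8 FPKM in the WT group, against 14.1, 22.9 and 15.1 FPKM in the deficient group, where replicate 2 stood above every WT library. Its log2 change of -0.16 (SE 0.19) was -0.37 without that library and -0.03 without PP2Aa-deficient replicate 1. The ratio of Stt3a to Stt3b was 1.05 to 1.45 in WT and 1.14 to 2.00 in the deficient group (two-sided exact permutation p = 0.3, adjusted p = 0.6).

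Subunits particular to the A form are OSTC and KRTCAP2, and those of the B form are the thiol oxidoreductases TUSC3 and MAGT1, of which 1 is present per complex. Ostc measured 73.96 ± 8.45 and 66.2 ± 5.08 FPKM and Krtcap2 157 ± 34.3 and 145.5 ± 31.6 (SD, n = 3). Magt1 stood at 7.97, 7.69 and 8.09 FPKM in the WT group, against 7.07, 5.90 and 7.32 FPKM in the deficient group. All 3 deficient libraries were below WT, with a log2 change of -0.20 (SE 0.15, limma adjusted p = 0.741). Tusc3 stood at 11.4, 22.6 and 31.6 FPKM in the WT group, against 18.2, 15.6 and 21.4 FPKM in the deficient group. The WT libraries spanned the whole deficient range, and the log2 change of -0.14 was 0.17 without WT replicate 3.

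Per length, Tusc3 exceeded Magt1 in every library, by a ratio of 1.43 to 3.901 in WT and 2.57 to 2.92 in the deficient group, the latter inside the WT range (two-sided exact permutation p = 1, adjusted p = 1). Summed over the 10 listed genes, oligosaccharyltransferase held 914, 794 and 748 FPKM in the WT group and 709, 712 and 711 FPKM in the deficient group. The groups did not overlap in this sum. Dad1 supplied much of it, and without Dad1 the sums were 379 to 467 FPKM in the WT group and 354 to 408 in the deficient group, which overlapped. With the further subunit genes Ost4 and Tmem258 added, the 12 genes summed to 1298, 1089 and 1086 FPKM in WT and 1046, 1127 and 1043 FPKM in the deficient group, which overlapped as well.

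WT replicate 1 stood apart across these genes. It held the highest value of the 6 libraries in 16 of 32 tested genes, whereas no other library did so in more than 4, and its median deviation from the mean of the libraries was 0.19 on the log2 scale, against -0.01 over all genes tested. PP2Aa-deficient replicates 2 and 3 held the lowest value in 11 and 8 genes and had median deviations of -0.12 and -0.10. WT replicate 2 also held the lowest value in 8 genes. The summed level of the 34 genes was 2323, 1821 and 1864 FPKM in the WT group and 1916, 1791 and 1856 FPKM in the deficient group, with WT replicates 2 and 3 inside the deficient range and only WT replicate 1 above it. Total FPKM over all genes also differed, at 553536, 454321 and 460887 in the WT group and 485563, 544950 and 493598 in the deficient group. The sums were not scaled to these totals, and the order of the libraries depends on that scaling.

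**Figure D4:**
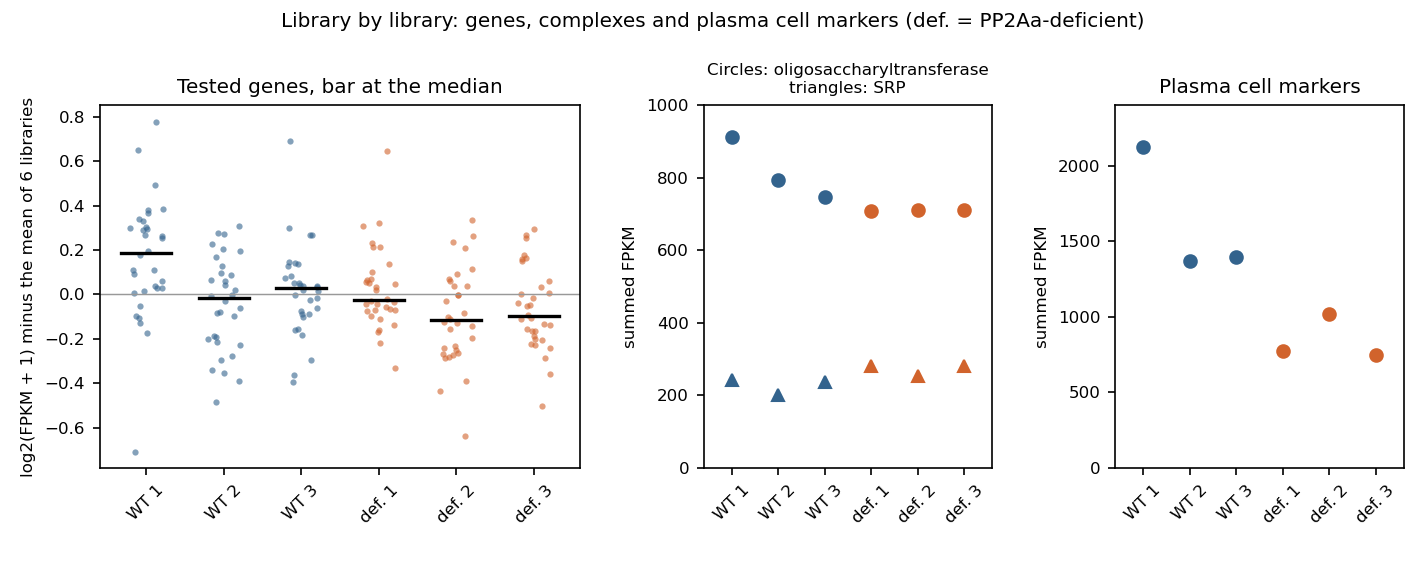
Left, deviation of each of the 32 tested genes from its mean over 6 libraries (vertical axis, log2 scale; 1 point per gene, bar at the median) in each library. Centre, summed FPKM of the 10 listed oligosaccharyltransferase genes (circles) and SRP genes (triangles), and right, summed FPKM of 11 plasma cell markers. WT replicate 1 is highest for the median deviation, the oligosaccharyltransferase sum and the plasma cell markers.

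Plasma cell markers also had lower mean values in the deficient group. All 11 tested markers of plasma cells had a lower mean log2 value there, against 51.1% of all genes tested. None passed, and the lowest limma adjusted p was 0.145, for Igj. In Mzb1, Irf4, Slamf7, Derl3, Fkbp11 and Tnfrsf17 the groups overlapped. The markers summed to 2121, 1367 and 1397 FPKM in the WT group and 771, 1018 and 746 FPKM in the deficient group. This sum was highest in WT replicate 1. Igj was its largest part in every WT library, and without Igj the groups overlapped in this sum. None of these markers was at 0 throughout. Igj, the joining chain of secreted antibodies, was at 1167, 816 and 792 FPKM in the WT group and 200, 461 and 186 FPKM in the deficient group, and Mzb1, an ER chaperone for immunoglobulin, was at 574 FPKM in WT replicate 1 and 236 to 326 in the other 5. In these bulk samples fewer cells of a type and less RNA per cell cannot be told apart, and the part of plasma cells in the ER gene values was not tested. Xbp1 stood at 66.2, 53.4 and 52.4 FPKM in the WT group, against 40.4, 37.7 and 32.9 FPKM in the deficient group. The groups did not overlap, and the log2 change was -0.62 (SE 0.14), larger in size than that of any tested ER gene of the list. For Xbp1 limma gave an adjusted p of 0.245 (0.00231 without adjustment).

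Markers of other cells also differed between libraries. The 9 macrophage markers with a row summed to 184 to 359 FPKM in the WT group and 104 to 163 in the deficient group, most of it Apoe in each library, while Fcgr1, Mertk and Timd4 stayed under 1 FPKM in every library. Emr1 stood at 8.59, 2.93 and 3.84 FPKM in the WT group, against 0.242, 1.91 and 0.250 in the deficient group (limma adjusted p = 0.245). The groups did not overlap in Emr1 and Apoe, whereas they overlapped in Csf1r, Lyz2 and Cd68. Mast cell and eosinophil markers summed to 21.2 to 40.7 and 5.997 to 14.6 FPKM, with Prg2 the only one to reach 1 FPKM and Epx at 0 throughout. Neutrophil markers summed to 2.11 to 6.57 and 1.31 to 6.62 FPKM with Elane at 0, and T cell markers to 4.95 to 8.17 and 7.13 to 11.2. Erythroid genes summed to 1.70 to 5.33 FPKM in the WT group and to 5.97, 1.86 and 41.7 FPKM in PP2Aa-deficient replicates 1 to 3, so the high sum rests on 1 library. Mesothelial and stromal markers summed to 31.5 to 41.0 and 30.5 to 36.2 FPKM, nearly all of it Pecam1, which endothelial cells express, with the other 7 under 1 FPKM in every library and Msln, Wt1, Krt19, Col1a1 and Col3a1 at 0. Whether such cells were present, and what they would contribute to the ER gene values, was not tested.

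A further split was seen with Xist, chosen after the values were seen. In 8 of 32 ER genes, or 25%, both libraries that express Xist (replicate 1 of each group) held the highest value of their group, against 12.5% of all genes tested, and in 0 genes did both hold the lowest, against 12.3%. The 8 genes were Srp14, Sec61a2, Sec61g, Ssr2, Ssr3, Ssr4, Ddost and Ostc, of which Ssr4 is X-linked. A term for Xist in the fit could not move any log2 change, because 1 library of each group expresses Xist. The median of -0.13 was therefore fixed in advance. Such a term can alter only standard errors and p-values, and with it 0 ER genes passed.

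Promoter letters were read for the genes whose groups did not overlap, since several ER stress factors, XBP1 and ATF6 among them, act through short elements near the start of such genes. RefSeq windows of GRCm38.p6, from 250 bases before to 50 bases after a gene's start, were held for 26 of the 34 genes. The ER stress response element ERSE was in 0 of these 26, against 0.166% of the 7234 tested genes with a window and 0.137% of all 27025 genes with one. The related element ERSE-II was in 1, Krtcap2, 17 bases past the start, against 0.0968% and 0.0444%. The core ACGTG, which many bZIP and E-box factors also read, was in 13 of 26 genes (50%), against 30.9% and 21.8%. CCACG, which can overlap ACGTG, was in 16 of 26 (61.5%), against 53.6% and 35.5%, and CCAAT was in 16 of 26, against 42.9% and 41.1%. The ETS core CCGGAAG, also searched, was in 5 of 26 (19.2%), against 23.5% and 9.93%. Both strands were searched, and a match is a description of the letters only.

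Of the 6 genes whose groups did not overlap, 5 had a window, and the 150 bases before the start are given 5′ to 3′ on the gene's strand, with the core ACGTG, the motif CCACG and the box CCAAT in capitals where either strand holds them. Within these bases Srp14, the 1 higher gene, and the lower genes Sec62 and Magt1 carry the core (at position -17 from the start in Srp14). Ssr3 has it outside them, at -189, and the window of Rpn1 held no match to the core ACGTG. Srp14 lies at chr2:118479697-118479846 on the minus strand, Sec62 at chr3:30792726-30792875 on the plus strand, Ssr3 at chr3:65392554-65392703 on the minus strand, Rpn1 at chr6:88084323-88084472 on the plus strand and Magt1 at chrX:106011803-106011952 on the minus strand. In Sec62 and Magt1 the capitals hold CACGTG, which has the core on both strands.
Srp14: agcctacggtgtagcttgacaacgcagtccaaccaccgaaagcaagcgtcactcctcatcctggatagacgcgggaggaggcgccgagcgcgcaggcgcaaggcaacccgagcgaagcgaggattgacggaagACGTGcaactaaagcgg
Sec62: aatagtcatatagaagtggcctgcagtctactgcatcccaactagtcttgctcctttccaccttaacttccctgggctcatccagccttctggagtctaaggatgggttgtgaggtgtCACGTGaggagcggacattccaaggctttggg
Ssr3: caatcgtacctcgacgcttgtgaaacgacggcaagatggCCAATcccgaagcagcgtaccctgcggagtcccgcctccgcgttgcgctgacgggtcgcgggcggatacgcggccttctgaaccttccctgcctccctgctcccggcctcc
Rpn1: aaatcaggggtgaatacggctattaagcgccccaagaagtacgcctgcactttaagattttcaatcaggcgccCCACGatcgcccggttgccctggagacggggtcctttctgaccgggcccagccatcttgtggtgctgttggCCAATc
Magt1: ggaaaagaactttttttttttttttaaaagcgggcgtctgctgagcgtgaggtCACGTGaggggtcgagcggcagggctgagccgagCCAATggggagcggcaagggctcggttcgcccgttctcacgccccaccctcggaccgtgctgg

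Other genes of the route were examined as lists, and 0 of their 89 tested genes passed; before adjustment limma gave p under 0.05 to 9 lower genes (10.1%) and 5 higher genes (5.62%), beside 4.41% and 5.06% of all genes. Among partners of the channel and lumenal chaperones, 5 of 10 were below WT. Tram1, which helps chains to pass Sec61, measured 22.8 ± 1.28 FPKM in the WT group and 28.9 ± 2.82 in the deficient group, whereas its paralog Tram2 measured 9.77 ± 1.39 and 7.10 ± 0.937 (SD, n = 3). In neither gene did the groups overlap, and the directions were opposite, with log2 changes of 0.33 and -0.41 (limma adjusted p = 0.491 and 0.505). Hyou1, a lumenal chaperone, measured 9.58 ± 1.55 and 7.47 ± 0.805 FPKM.

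In the insertion routes that bypass Sec61 for tail-anchored and multipass proteins, 7 of 17 genes were below WT. Wrb, a membrane receptor of the tail-anchor route, measured 2.05 ± 0.281 and 0.883 ± 0.334 FPKM (SD, n = 3; log2 change -0.71, limma adjusted p = 0.397), while the ER membrane complex genes Emc10, at 11.2 ± 2.87 and 18.5 ± 6.60, and Mmgt1, at 1.898 ± 0.285 and 2.91 ± 0.251, were at a higher mean.

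Among 27 genes that build the lipid-linked glycan donor, 17 were below WT, with a median log2 change of -0.11. The mannosyltransferase gene Alg2 measured 2.93 ± 0.155 and 1.59 ± 0.564 FPKM and Alg13, an early glycosyltransferase subunit, 2.26 ± 0.410 and 1.32 ± 0.0758 (SD, n = 3; limma adjusted p = 0.434 and 0.51). After transfer, glycan trimming and the calnexin cycle had 6 of 14 genes below WT. Edem2, which trims mannose from misfolded glycoproteins, was at 17.2 to 22.7 FPKM in the WT group and 13.7 to 15.4 in the deficient group (log2 change -0.45, limma adjusted p = 0.4). Prkcsh, a glucosidase II subunit, measured 19.7 ± 4.32 and 14.5 ± 1.91 FPKM, and the lectin chaperone gene Calr 120.3 ± 28.9 and 96.4 ± 11.3.

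Of the remaining subunits of oligosaccharyltransferase, Ost4 measured 199.5 ± 32.5 and 224 ± 32.4 FPKM and Tmem258 139 ± 17.95 and 137 ± 22.7 (SD, n = 3), both with overlapping groups. In the GPI transamidase, which joins proteins to a lipid anchor in the ER, 3 of 5 genes were below WT. Pigu measured 7.26 ± 0.745 and 4.55 ± 1.09 FPKM, Pigk 4.30 ± 0.792 and 3.13 ± 0.4998, and Pigt 18.6 ± 1.13 and 22.9 ± 1.18, with limma adjusted p from 0.397 to 0.624. In the COPII coat that carries cargo out of the ER, 8 of 14 genes were below WT. Sec22b, a membrane fusion protein of this step, measured 19.4 ± 1.19 and 15.4 ± 1.26 FPKM, the related Bet1 4.37 ± 1.33 and 2.38 ± 0.575, and the cargo adaptor gene Sec24d 1.45 ± 0.587 and 0.489 ± 0.302, with limma adjusted p from 0.434 to 0.521.

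Some ER genes share genomic positions with others in RefSeq: Srpr with Fam118b, Spcs1 with Glt8d1, Spcs2 with Xrra1, Rpn2 with Mroh8 and Krtcap2 with Trim46. The use of strand in counting is unknown here, and the values of these ER genes may include reads of their neighbours.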

How the data were processed

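RNA of 6 mouse B cell libraries, prepared by Smart-seq2 from little input per the labels, was measured. The authors deposited 1 table of FPKM values, 1 column per library; BWA, Cuffnorm, Cufflinks 2.2.1 and TopHat2 2.0.10 appear, without role, per the submitters' processing notes. For build, annotation, strand use and scaling: not given in the sources used here. Columns were matched to samples by the well in the table, and replicate numbers follow the order of the samples within each group. Of 22815 rows, 27 had dates as names and were left out.

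Genes with at least 1 FPKM in at least 3 libraries were tested as log2(FPKM + 1) with limma 3.58.1 in R 4.3.3 (moderated, mean-variance trend, two-sided), adjusted by Benjamini-Hochberg at 0.05. Fold changes on this scale understate changes of low genes. On simulated data of 9425 genes with 100 changed genes per size, the step recovered 94% of log2 changes of 1 and 100% of changes of 2, with 11 false calls. The changed genes were drawn only from genes of high mean level, with normal noise at the variances limma had moderated. These rates therefore do not carry over to lower genes or to the real libraries. There 3 of 9425 genes were called, and Ppp2r1a, at a log2 change of -1.18, had a limma adjusted p of 0.168. Relative depth and fragments came from the most common step of values under 0.3 FPKM with GENCODE M21 lengths, and are approximate. Members, lists and tests were chosen with earlier results of these data known. Full library values are given for members at an unadjusted p under 0.05, the most abundant member per complex, paralog pairs and untested members, and in pathway lists up to 3 genes of smallest p are named (1 such gene is not reported here); Srp9, Spcs1, Ssr3, Rpn1 and Srp54c, which the rule does not name, were picked with their values known. Tables and figures used matplotlib 3.10.9, scipy 1.17.1, numpy 2.4.6 and pandas 2.3.3 under Python 3.11.15. Alternatives were a pseudocount of 0.1, no filter, a filter at 5 FPKM, median-ratio and quantile scaling, no trend, a term for Xist, and each library left out.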

Additional observations from a re-analysis of the deposited data

How the results depend on the processing

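In all 13 alternatives 0 ER genes were called in either direction. The number below WT ranged from 18 to 27 and the median log2 change from -0.16 to -0.04 when 1 library was left out, with 18 and -0.04 both without WT replicate 1, and from 22 to 24 and from -0.13 to -0.11 under the other settings. The count of genes whose groups did not overlap was examined in settings added after seeing the data. When 1 library was left out, it was 7 to 9 lower and 1 to 3 higher of 32. The shares over all genes tested were then 11.3% to 15.2% and 11.3% to 14.04%. Leaving a library out makes separation easier for all genes. With no filter 2 genes were higher, beside 5.95% of all genes. The second was Srp54a, since more genes were then counted. Among the genes refitted one by one (those the naming rule gives; Srp9, Srp19, Srp68, Spcs2 and the remaining members were not listed singly), the sign of the log2 change turned when 1 library was left out for Sec61b (-0.012 to 0.28), Ssr4 (-0.47 to 0.069), Tusc3 (-0.53 to 0.17) and Tmem258 (-0.13 to 0.12), and for Tmem258 with quantile normalization (0.029); the cause was not tested. The median log2 change of the SRP genes was -0.08 without WT replicate 2 and that of signal peptidase 0.05 without WT replicate 1 and 0.06 without PP2Aa-deficient replicate 3, against 0.07 and -0.01 with all libraries. No paired analysis was possible because the labels give no replicate numbers. Those used here follow the order of the samples, and equal numbers do not mark pairs. Depth could only be estimated from FPKM, and Sec61a2 and Srp54a rest on few fragments.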
